A study of Homo sapiens with 6 samples.

Results

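Lysosomal genes were followed in U937 cells with and without forced BCL6B expression. The set was 41 named genes out of 58735 in the deposited table, taken by gene symbol, and each symbol matched 1 row. It was made of 16 acid hydrolases, 3 soluble cofactors, 5 membrane proteins, 14 subunits or accessory proteins of the vacuolar proton pump (V-ATPase) and 3 transcription factors of the MiT-TFE family. U937 is an established human myeloid line with monocytic features, which the labels enter as an acute promyelocytic leukaemia cell from bone marrow. The groups were 3 libraries labelled oeBCL6B, in which BCL6B was overexpressed, and 3 libraries labelled control with the genotype NC, and all 6 had the same batch label and treatment entry. The series' design text names lentiviral delivery for overexpression in several AML lines. The sources used here do not give the control vector, the number of clones, or whether each replicate was its own culture. A p-value therefore reflects library-to-library spread alone, and that spread may be technical. The study's design text also names GGT5, which stood at 1.09 ± 0.161 FPKM with overexpression and 2.38 ± 0.0816 FPKM in controls (limma adjusted p = 0.00408).

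Lysosomes break down proteins, glycans and lipids with hydrolases that work at acid pH. The V-ATPase supplies that acidity. Its cytosolic V1 sector splits ATP and turns a rotor, and its membrane-bound V0 sector carries protons through a ring of c subunits. Many lysosomal genes carry a short promoter element called CLEAR, built around an E-box with the letters CACGTG. TFEB, TFE3 and MITF bind it, and when the kinase complex MTORC1 is active on the lysosome it keeps TFEB and TFE3 in the cytosol. The same letters are bound by MYC-MAX dimers. Myeloid cells use many of the same proteases in their granules.

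To show what this element looks like in the set, RefSeq promoters of GRCh38.p14 were searched on both strands, over 250 bases before and 50 bases after each annotated start. Of the 41 genes 29 matched the promoter table by symbol. The others were CTSB, CTSS, LGMN, HEXA, ASAH1, PSAP, LAMP2, ATP6V0E1, ATP6V1A, ATP6V1B2, ATP6V1C1 and ATP6V1H. The letters CACGTG were found in 9 of the 29 promoters, or 31.0%, against 10.6% of 8893 promoters of tested genes and 7.43% of all 27305 promoters in the table. The longer TCACGTG, which overlaps CACGTG, was in 8 of the 29, or 27.6%, against 6.16% of tested and 3.82% of all promoters. TCATGTG, a variant known for MITF, was in 3 of the 29, or 10.3%, against 1.69% of tested and 2.99% of all promoters. A match is a description of these letters and was not tested as a binding site. The element is known from many lysosomal genes, so its higher share in the set is no separate finding. Median promoter GC content was 68.7% for the 29 and 65.3% for tested genes, and its part in these shares was not tested. The 3 promoters below belong to genes that changed and that hold CACGTG. They are written from 5′ to 3′ along the gene's own strand, and capitals mark a match to any of the 3 motifs in either orientation.

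NEU1 promoter, chr6:31862772-31863071, minus strand: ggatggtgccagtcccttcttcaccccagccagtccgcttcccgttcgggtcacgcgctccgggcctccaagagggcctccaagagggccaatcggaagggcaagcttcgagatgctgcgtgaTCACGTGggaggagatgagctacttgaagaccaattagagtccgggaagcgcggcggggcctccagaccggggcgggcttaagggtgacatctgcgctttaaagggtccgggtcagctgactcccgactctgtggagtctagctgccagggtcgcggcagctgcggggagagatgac
CD63 promoter, chr12:55728960-55729259, minus strand: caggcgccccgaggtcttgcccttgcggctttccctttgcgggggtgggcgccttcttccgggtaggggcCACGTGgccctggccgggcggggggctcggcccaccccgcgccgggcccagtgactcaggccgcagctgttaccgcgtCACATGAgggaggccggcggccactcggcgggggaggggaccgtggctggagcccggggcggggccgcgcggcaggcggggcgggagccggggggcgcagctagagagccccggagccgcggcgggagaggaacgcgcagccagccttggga
CTSA promoter, chr20:45891085-45891384, plus strand: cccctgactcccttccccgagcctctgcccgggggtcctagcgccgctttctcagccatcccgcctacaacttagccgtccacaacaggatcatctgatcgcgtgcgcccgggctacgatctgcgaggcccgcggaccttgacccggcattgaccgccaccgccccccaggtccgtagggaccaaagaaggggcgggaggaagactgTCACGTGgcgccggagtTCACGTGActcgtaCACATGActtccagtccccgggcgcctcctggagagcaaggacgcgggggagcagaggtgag

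In NEU1 the CACGTG began 126 bases before the start. In CD63 it began 180 bases before the start, with a TCATGTG match in reverse 102 bases before the start. CTSA held 2 copies of CACGTG, at 42 and 25 bases, and a reverse TCATGTG at 12 bases before the start. The other 6 promoters with CACGTG are shown as the stretch that spans their matches, for comparison of spacing and flanks in genes that did not pass the test.

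LAMP1 stretch, chr13:113297034-113297256, plus strand: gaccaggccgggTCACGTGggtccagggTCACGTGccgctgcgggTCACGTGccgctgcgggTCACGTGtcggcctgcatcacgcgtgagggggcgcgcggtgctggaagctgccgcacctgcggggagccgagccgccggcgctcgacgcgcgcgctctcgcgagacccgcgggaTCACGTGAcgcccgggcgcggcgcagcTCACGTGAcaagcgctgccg
GAA stretch, chr17:80101492-80101568, plus strand: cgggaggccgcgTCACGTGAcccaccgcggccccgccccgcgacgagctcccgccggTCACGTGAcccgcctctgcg
MCOLN1 stretch, chr19:7522570-7522628, plus strand: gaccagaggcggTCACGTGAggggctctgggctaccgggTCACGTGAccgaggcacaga
ATP6V0B stretch, chr1:43974890-43974938, plus strand: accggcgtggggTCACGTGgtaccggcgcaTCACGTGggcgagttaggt
ATP6V0D1 stretch, chr16:67481198-67481229, minus strand: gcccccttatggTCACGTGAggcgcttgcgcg
CTSD stretch, chr11:1763956-1763986, minus strand: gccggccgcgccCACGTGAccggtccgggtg

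LAMP1 held 6 copies, while GAA, MCOLN1 and ATP6V0B held 2 each and ATP6V0D1 and CTSD 1 each. Of the 9 genes with CACGTG 2 rose, 1 fell and the others did not pass. Of the 20 tested genes of the set whose promoter lacked it, 1 rose and 3 fell. Among all 942 tested genes with CACGTG, 6.37% rose and 14.3% fell, and among 7953 table rows of tested genes without it 8.53% rose and 11.6% fell.

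**Figure D1:**
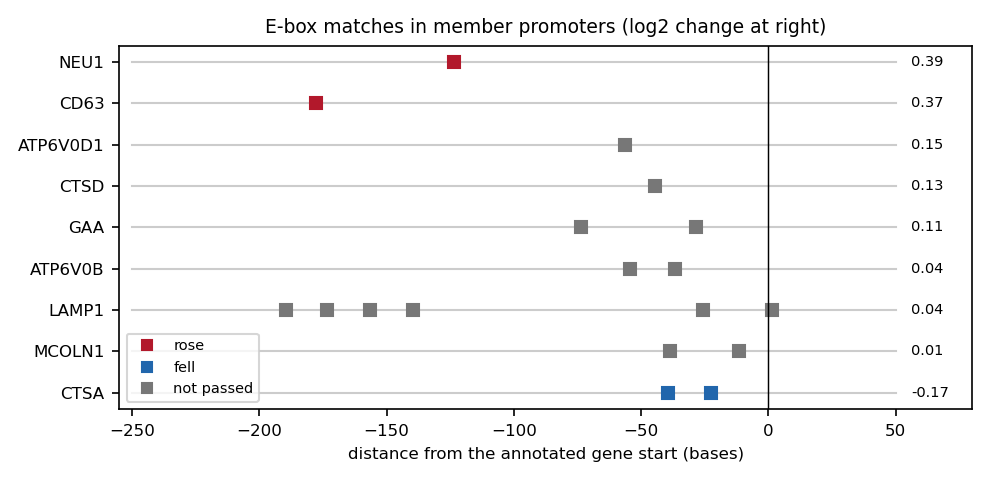
Positions of CACGTG matches in the promoters of 9 lysosomal genes, as distance in bases from the annotated gene start (vertical line), with colour for the result of the test and the log2 change at the right. The 6 copies of LAMP1, at a log2 change of 0.04, stand beside single copies in NEU1 and CD63, which rose by 0.39 and 0.37.

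Levels are FPKM, fragments scaled for the length of the gene and for the fragments of the library. For all 41 genes the length the authors divided by equalled the bases covered by any GENCODE 29 exon of the gene, so genes with many long transcript forms (ASAH1, 15378 bases) appear low for their number of fragments. Each FPKM value was a whole number of fragments, and depth in listed genes was 17095256 to 18870186 with overexpression and 16481014 to 17627289 in controls. BCL6B itself had 1215 to 1712 fragments per library with overexpression and none in any control library. Mitochondrially encoded genes took 4.49% to 4.97% of fragments with overexpression and 4.17% to 4.44% in controls, and their part in the results below was not tested. Of 16 myeloid markers 14 averaged at least 1 FPKM, and their summed level was 2224 to 2431 FPKM with overexpression and 2820 to 2981 FPKM in controls, most of it MPO, which averaged 1846 FPKM over the 6 libraries. Of 8 erythroid markers 6 had no read and none averaged 1 FPKM. The 7 T cell markers summed to 4.34 to 6.03 FPKM with overexpression and 3.22 to 4.42 FPKM in controls, with CD3D the highest. The 5 B cell markers summed to 7.02 to 7.90 FPKM with overexpression and 6.81 to 7.74 FPKM in controls. The 9 fibroblast and epithelial markers summed to 5.78 to 6.98 FPKM with overexpression and 5.55 to 6.38 FPKM in controls, nearly all of it EPCAM.

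Of the 41 genes 40 passed the filter of at least 0.5 FPKM in at least 3 libraries and were tested with limma on log2(FPKM + 1). A log2 change on this scale understates the change of low genes, and in bulk RNA fewer cells with a transcript and less of it per cell cannot be told apart. With overexpression 4 genes rose (NEU1, PSAP, CD63 and TFE3) and 4 fell (CTSA, CTSH, GLA and ATP6V0C) at an adjusted p below 0.05. That was 10% rising and 10% falling, against 8.18% and 10.1% of all 14662 tested genes, or 20% called in all against 18.3%. In this fit the lysosomal genes were thus called about as often as any tested gene. With 1 library left out their share was lower in every fit, at 2.5% to 12.5% against 8.33% to 15.5%. Other settings went both ways, at 10% against 16.4% without the mean-variance trend and 12.2% against 5.23% without the filter. The median log2 change was 0.05 over the 40 genes and -0.02 over all tested genes, and 28 of the 40 had a positive and 12 a negative change, against 6806 and 7856 of all tested genes. All 3 libraries of one group lay above all 3 of the other for 16 of the 40 (11 higher and 5 lower with overexpression), which is 40%, against 40% of all tested genes. By direction this was 27.5% higher and 12.5% lower in the set, against 17.8% and 22.2% of all tested genes.

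The summed level of the 40 genes was 795, 834 and 816 FPKM with overexpression and 780, 835 and 778 FPKM in controls, so the groups overlapped. The mean of the sum was 815 ± 19.3 with overexpression and 797 ± 32.3 FPKM in controls (SD, n = 3 each). The ratio of these means was 1.02, and for the sum over all tested genes it was also 1.02. Levels spanned a wide range, with a median over the 40 genes of 10.6 FPKM against 4.55 FPKM over all tested genes. ATP6V1F, PSAP and ATP6V0B were highest, at 108, 88.1 and 51.8 FPKM with overexpression and 118, 74.8 and 50.2 FPKM in controls. TFEB and MITF were lowest, with 0.674 and 0.718 FPKM with overexpression and 0.407 and 0.619 FPKM in controls. The spread within a group was small, with a median coefficient of variation of 6.12% with overexpression and 5.92% in controls, against 8.95% and 7.70% over all tested genes. These values were not matched for level, which was higher in the set. Control replicate 2 held the highest control value for 25 of the 40 genes, and no other library was the extreme of its group as often. Overexpression replicate 1 was the lowest of its group for 20 genes, and control replicate 1 for 19. Summed over all listed genes, FPKM was also highest in replicate 2 of each group, at 292341 with overexpression and 287255 in controls. The part of these sums in the pattern was not tested. Across the 40 genes the change was weakly related to the control level (Pearson r = -0.13, Spearman rho = -0.17), and the genes share the same 6 libraries.

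**Figure D2:**
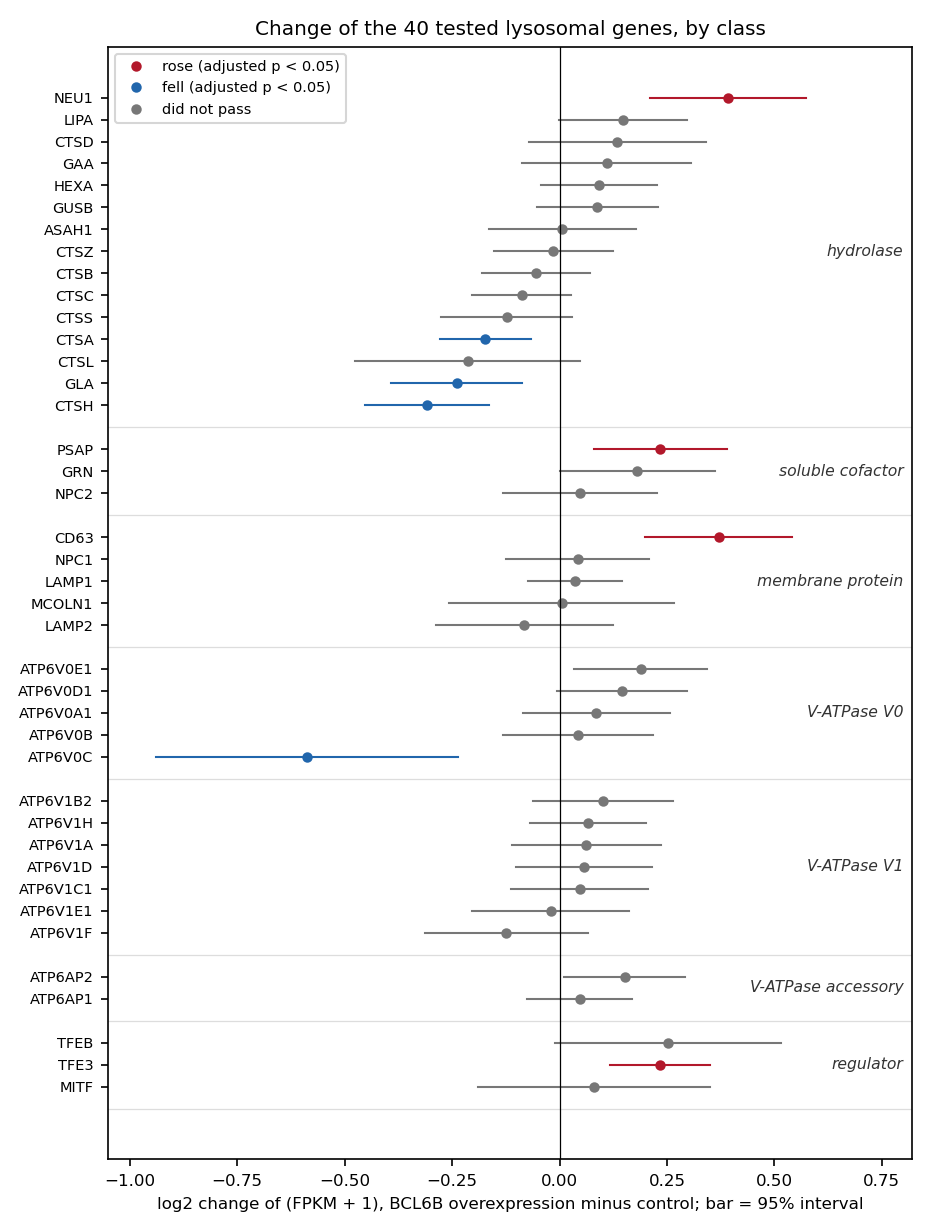
Log2 change of (FPKM + 1), BCL6B overexpression minus control, for the 40 tested lysosomal genes by class, with 95% intervals as bars (n = 3 libraries per group). Most points lie within 0.25 of zero, and the 8 coloured genes are those that passed the test.

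Of the 8 tested proteases 2 fell and 0 rose, a small count to set beside the 10.1% of all tested genes that fell and 8.18% that rose. A negative change was seen for 7 of these 8, against 7856 of all 14662 tested genes, and their median log2 change was -0.11. Outside the set the cathepsin CTSW rose and the cathepsin CTSG fell, at log2 changes of 0.55 and -0.99. The myeloid markers went both ways. Of 15 tested, 6 fell (PTPRC, CD33, LYZ, MPO, AZU1 and PRTN3) and 0 rose, against the same background. For another 6, among them SPI1 at 1.13, CEBPA at 1.22 and ANPEP at 1.16 times control, all overexpression libraries lay above all controls without passing. The median log2 change of the 15 was 0.03, and their part in the protease values was not tested. The cathepsins digest proteins, and CTSH, which encodes an aminopeptidase and endopeptidase, changed most among the 8 tested proteases of the set. CTSH stood at 20.8, 20.1 and 22.7 FPKM with overexpression and at 25.7, 28.0 and 25.9 FPKM in controls. The lowest control lay above the highest overexpression library. The mean was 21.2 ± 1.34 with overexpression and 26.5 ± 1.24 FPKM in controls, or 0.801 of control (SD, n = 3 each, log2 change -0.31, SE 0.0605, limma adjusted p = 0.0169). CTSH lost its call without overexpression replicate 2, at 0.0594, and without control replicate 3, at 0.0529, with adjusted p of 0.00165 to 0.0594 over 16 alternatives.

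CTSA encodes a serine carboxypeptidase that also shields the sialidase NEU1 and beta-galactosidase in a complex. It stood at 10.6, 11.1 and 11.0 FPKM with overexpression and at 12.5, 12.2 and 12.5 FPKM in controls. The groups did not overlap, and each was tight. Parts of its exons also lie in NEURL2 (17.7% of the exon bases) and PLTP on the opposite strand, and whether counting used strand is not known here. The ratio was 0.878 (log2 change -0.17, SE 0.0446, limma adjusted p = 0.0398). CTSA kept this call in 4 of 16 alternatives. It was lost when any 1 library was left out, at adjusted p of 0.0644 to 0.132, and with all libraries kept under median ratio scaling, quantile normalization, TPM rescaling, no mean-variance trend, the replicate block and limma voom, at 0.0511 to 0.0792.

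The other proteases did not pass. CTSC, the dipeptidyl peptidase that activates granule serine proteases, was at 31.9 ± 0.702 with overexpression and 34.0 ± 1.56 FPKM in controls. CTSZ, CTSB and CTSS were at 36.3, 11.8 and 8.51 FPKM with overexpression and at 36.7, 12.3 and 9.35 FPKM in controls. CTSL stood at 3.93, 3.88 and 3.92 FPKM with overexpression and at 4.18, 5.80 and 4.24 FPKM in controls. The CTSL groups did not overlap, but control replicate 2 lay far above the other controls (log2 change -0.21, limma adjusted p = 0.222). CTSD, an aspartic protease, had the only positive change among the tested proteases, at 15.7 ± 1.66 with overexpression and 14.2 ± 0.993 FPKM in controls (limma adjusted p = 0.325). GENCODE 29 assigns 41.7% of the CTSD exon bases also to AC068580.4 on the same strand, and the sources used here do not say how fragments in shared bases were counted. LGMN, the asparaginyl endopeptidase, had 1, 1 and 0 fragments with overexpression and 0 in each control, and was not tested.

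Of 7 glycosidases and lipid hydrolases 1 rose and 1 fell, small counts beside the 8.18% rising and 10.1% falling of all tested genes. NEU1 encodes the sialidase that trims sialic acid from glycoproteins and gangliosides. It stood at 9.30, 9.36 and 10.3 FPKM with overexpression and at 6.42, 7.77 and 7.18 FPKM in controls. Every overexpression library lay above every control. The mean was 9.64 ± 0.549 with overexpression and 7.12 ± 0.675 FPKM in controls, a 1.35-fold rise (SD, n = 3 each, log2 change 0.39, SE 0.0762, limma adjusted p = 0.0164). NEU1 kept its call in 15 of 16 alternatives and lost it without control replicate 3, at 0.0549. Its partner CTSA changed in the other direction, as given above.

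GLA encodes alpha-galactosidase A, which removes terminal galactose from globotriaosylceramide. It stood at 34.1, 35.6 and 36.1 FPKM with overexpression and at 44.0, 43.5 and 38.1 FPKM in controls. The groups did not overlap, and control replicate 3 lay near the overexpression libraries. The ratio was 0.842 (log2 change -0.24, SE 0.0638, limma adjusted p = 0.0437). GLA lost its call when any 1 library other than control replicate 3 was left out, at adjusted p of 0.0757 to 0.138, and stood at 0.0310 without control replicate 3. With all libraries kept, GLA lost it without the filter, under median ratio scaling and quantile normalization, without the trend and with the replicate block, at 0.0524 to 0.0982, and so kept it in 6 of 16 alternatives.

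The other glycan and lipid enzymes did not pass. LIPA, the acid lipase that frees cholesterol from its esters, was at 6.92 ± 0.356 with overexpression and 6.15 ± 0.359 FPKM in controls, and the groups did not overlap (limma adjusted p = 0.150). HEXA, a subunit of the hexosaminidase that degrades gangliosides, was at 4.38 ± 0.194 with overexpression and 4.05 ± 0.0151 FPKM in controls, also without overlap (limma adjusted p = 0.301). GAA, which degrades glycogen, GUSB, the beta-glucuronidase, and ASAH1, the acid ceramidase, were at 6.58, 24.6 and 3.27 FPKM with overexpression and at 6.01, 23.1 and 3.24 FPKM in controls. The 95% interval of the ASAH1 log2 change ran from -0.16 to 0.18.

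Of the 3 soluble cofactors 1 rose, a small count to set beside the 8.18% of all tested genes that rose. PSAP encodes the precursor of the saposins, small proteins that present sphingolipids to their hydrolases. It stood at 84.6, 94.2 and 85.6 FPKM with overexpression and at 72.5, 80.2 and 71.5 FPKM in controls. The groups did not overlap, and replicate 2 was the highest in both. The rise was 1.18-fold (log2 change 0.23, SE 0.0650, limma adjusted p = 0.0491). PSAP lost its call when any 1 library other than control replicate 2 was left out, at adjusted p of 0.0631 to 0.154, and stood at 0.0393 without that library. PSAP also lost it with a pseudocount of 0.1, at 0.0503, without the filter, at 0.114, and without the trend, at 0.0798, and kept it in 8 of 16 alternatives. GRN, which encodes progranulin, was at 41.4, 42.8 and 50.2 FPKM with overexpression and at 39.2, 40.4 and 38.2 FPKM in controls, without overlap and without passing (limma adjusted p = 0.146). NPC2, the soluble carrier of cholesterol, was at 8.54 ± 0.434 with overexpression and 8.25 ± 0.769 FPKM in controls.

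Of the 5 membrane proteins 1 rose, again a small count beside the 8.18% of all tested genes that rose. CD63 encodes a tetraspanin of late endosomes and lysosomes that is also found in azurophil granules and on extracellular vesicles. It stood at 36.9, 41.4 and 36.1 FPKM with overexpression and at 27.6, 31.5 and 28.7 FPKM in controls. Every overexpression library lay above every control, and replicate 2 was the highest in both groups. The rise was 1.30-fold (log2 change 0.37, SE 0.0717, limma adjusted p = 0.0163). CD63 lost its call without control replicate 1, at 0.0609, and without control replicate 3, at 0.0615. The main structural proteins of the membrane did not pass. LAMP1 was at 41.8 ± 0.625 with overexpression and 40.8 ± 1.73 FPKM in controls, and its log2 change had a 95% interval of -0.07 to 0.14. LAMP2 was at 27.4 ± 2.54 with overexpression and 29.04 ± 2.58 FPKM in controls. NPC1, which exports cholesterol together with NPC2, and MCOLN1, a calcium channel of the lysosome, were at 2.65 and 3.41 FPKM with overexpression and at 2.55 and 3.38 FPKM in controls.

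**Figure D3:**
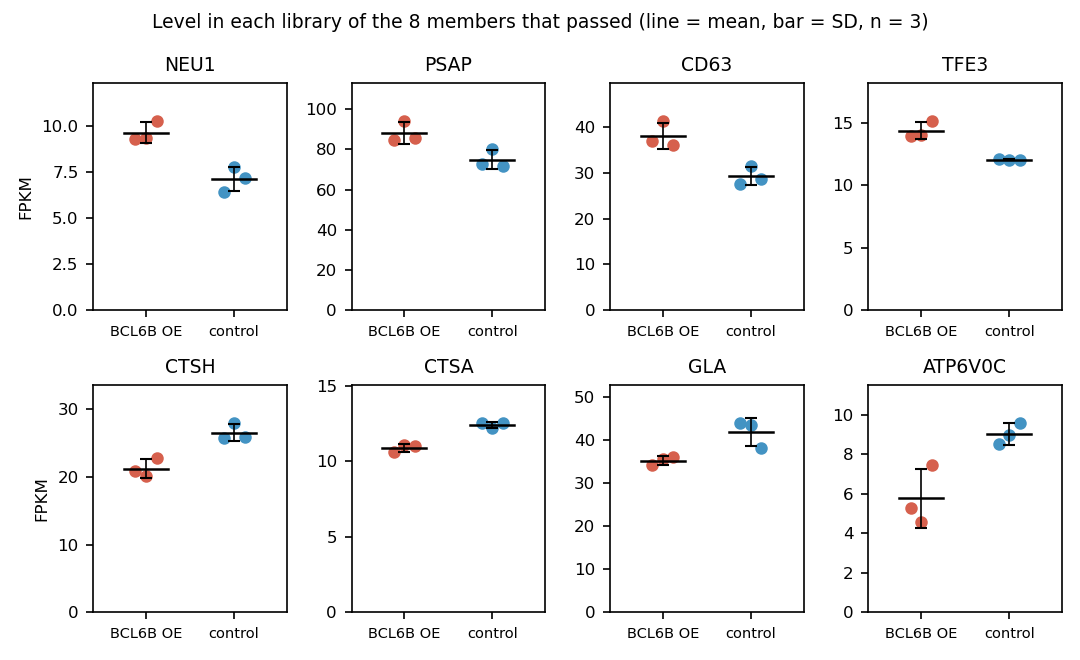
FPKM in each library for the 8 lysosomal genes that passed the test, 3 BCL6B overexpression libraries at the left and 3 controls at the right of each panel, with the mean as a line and the SD as a bar. The groups do not overlap in any of the 8 panels. The spread within the overexpression libraries is wide for ATP6V0C, at an SD of 1.51 FPKM, and that within the controls is narrow for TFE3, at 0.0450 FPKM.

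In the V-ATPase 1 of 14 genes fell and 0 rose, against 10.1% falling and 8.18% rising over all tested genes. The gene that fell was ATP6V0C, which encodes the c subunit of the proton-carrying ring. It stood at 5.28, 4.56 and 7.46 FPKM with overexpression and at 8.50, 8.98 and 9.58 FPKM in controls, from 149, 122 and 224 fragments with overexpression and 234, 245 and 249 in controls. The groups did not overlap, and overexpression replicate 3 lay closest to the controls. The mean was 5.77 ± 1.51 with overexpression and 9.02 ± 0.542 FPKM in controls, or 0.640 of control (SD, n = 3 each, log2 change -0.59, SE 0.148, limma adjusted p = 0.0376). ATP6V0C lost its call when any 1 library other than overexpression replicate 3 was left out, at adjusted p of 0.0815 to 0.111, and stood at 0.00866 without that library. ATP6V0C also lost it without the filter, at 0.109, and without the trend, at 0.0515. GENCODE 29 assigns 57.5% of its exon bases also to AC093525.2 on the same strand, which had few or no fragments, with mean levels of 0.0171 FPKM with overexpression and 0.00988 FPKM in controls. If fragments that fall in shared bases were discarded in counting, the level given here is too low. With the overlapping genes added, the fragments were 149, 122 and 226 with overexpression and 234, 245 and 250 in controls.

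The rest of V0 had small positive changes, none of which passed. ATP6V0E1, the e subunit, stood at 41.05, 39.9 and 36.4 FPKM with overexpression and at 35.5, 35.3 and 31.8 FPKM in controls. The groups did not overlap (1.14-fold, log2 change 0.19, limma adjusted p = 0.0900). ATP6V0D1, which joins the ring to the rotor, was at 3.76 ± 0.159 with overexpression and 3.30 ± 0.175 FPKM in controls, again without overlap (limma adjusted p = 0.157). ATP6V0A1, an isoform of the a subunit, and ATP6V0B, the c″ subunit, were at 3.18 and 51.8 FPKM with overexpression and at 2.94 and 50.2 FPKM in controls.

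In V1 the groups overlapped for each of the 7 subunits tested. ATP6V1A and ATP6V1B2, the subunits that form the ATP-splitting head, were at 9.75 ± 0.556 and 7.92 ± 0.639 FPKM with overexpression and at 9.30 ± 0.795 and 7.31 ± 0.304 FPKM in controls. Their log2 changes had 95% intervals of -0.11 to 0.24 and -0.06 to 0.26. The rotor subunit ATP6V1D and the stator subunits ATP6V1C1 and ATP6V1E1 were at 6.18, 7.24 and 18.1 FPKM with overexpression and at 5.90, 6.97 and 18.4 FPKM in controls. ATP6V1H, which couples ATP splitting to the pump, was at 8.39 ± 0.457 with overexpression and 7.96 ± 0.262 FPKM in controls. ATP6V1F, a subunit of the central stalk that shares 23.7% of its exon bases with KCP on the opposite strand, had the most negative change of V1, at 108 ± 7.48 with overexpression and 118 ± 10.8 FPKM in controls (log2 change -0.12, limma adjusted p = 0.327). Of the accessory proteins, ATP6AP2, also known as the prorenin receptor, was at 16.2, 15.0 and 14.1 FPKM with overexpression and at 13.6, 13.1 and 13.7 FPKM in controls. Its groups did not overlap, and it did not pass (limma adjusted p = 0.123). ATP6AP1 was at 29.5 ± 1.69 with overexpression and 28.5 ± 0.511 FPKM in controls.

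A wider list of 25 V-ATPase subunits and assembly factors was set beside the same 10.1% falling and 8.18% rising. Of these 22 were in the table and 16 were tested, with 1 fall and 0 rises. That fall was DMXL2, a component of the complex that helps V1 join V0, at 0.475 of control with overexpression (log2 change -1.03, limma adjusted p = 0.000294). It kept its call in all 16 alternatives, with adjusted p up to 0.0035. Among the a subunit isoforms TCIRG1 was the highest, at 45.4, 49.8 and 60.3 FPKM with overexpression and 53.8, 52.7 and 53.1 FPKM in controls. ATP6V0A2 was at 5.07, 5.06 and 4.46 FPKM with overexpression and 4.99, 4.48 and 4.50 FPKM in controls. TCIRG1 lay above both ATP6V0A1 and ATP6V0A2 in every library on this per-length scale. The G subunit came mainly from ATP6V1G1, at 67.7, 62.0 and 64.4 FPKM with overexpression and 61.8, 61.7 and 67.5 FPKM in controls.

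**Figure D4:**
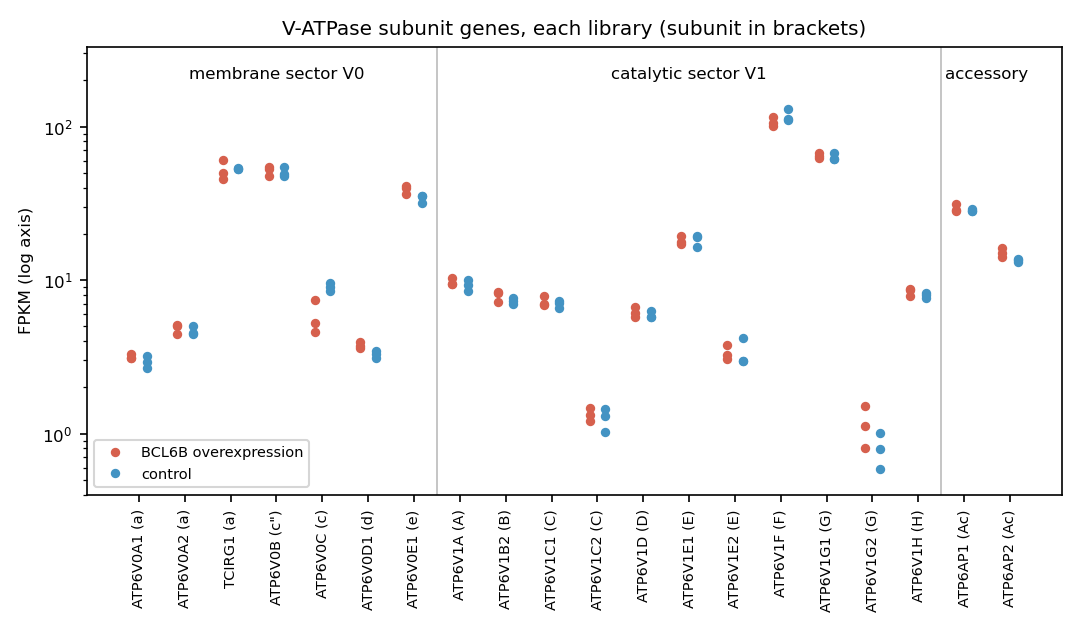
FPKM (log axis) of V-ATPase subunit genes in each of 3 BCL6B overexpression (left of each position) and 3 control libraries (right), by sector, with the subunit in brackets. Points of both groups lie close together for most genes, and those of ATP6V0C stand apart with 5.77 and 9.02 FPKM on average.

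Of the 3 regulators 1 rose, a count too small to set the class apart from the 8.18% of all tested genes that rose. TFE3 stood at 13.9, 14.0 and 15.1 FPKM with overexpression and at 12.09, 12.01 and 12.02 FPKM in controls. The controls were almost equal and every overexpression library lay above them. The rise was 1.19-fold (log2 change 0.23, SE 0.0493, limma adjusted p = 0.0212). TFE3 lost its call without overexpression replicate 2 and without any 1 of the controls, at adjusted p of 0.0573 to 0.0768, and after rescaling to TPM, at 0.0755. TFEB was low, at 0.762, 0.624 and 0.636 FPKM with overexpression and at 0.308, 0.525 and 0.388 FPKM in controls. It passed the filter only through the overexpression libraries and 1 control, and its groups did not overlap (81, 63 and 72 fragments with overexpression, and 32, 54 and 38 in controls). Its ratio was 1.66, and the log2(FPKM + 1) change was 0.25 (limma adjusted p = 0.158, 95% interval -0.01 to 0.52), while limma voom on the recovered fragments called it, at an adjusted p of 0.0260. MITF, also low, was at 0.518, 0.865 and 0.771 FPKM with overexpression and at 0.599, 0.650 and 0.610 FPKM in controls, so its groups overlapped.

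Of the 40 tested genes 32 did not pass. For 31 of them the 95% interval of the log2(FPKM + 1) change lay within 0.5 of zero on either side, and the exception was TFEB. This scale understates the change of low genes such as MITF and CTSL. For such genes an interval within 0.5 does not bound the FPKM ratio as closely. The lowest bound was -0.48, for CTSL. The median SE was 0.0694.

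Genes of the same pathway outside the set were counted in lists of other hydrolases, membrane proteins, delivery, MTORC1 control and autophagy, with the same test and the same background of 8.18% rising and 10.1% falling. Of 34 other hydrolases and activators 5 rose and 3 fell, with a median log2 change of 0.01. IDS, which removes sulfate from heparan and dermatan sulfate, was at 3.42 ± 0.123 with overexpression and 1.74 ± 0.151 FPKM in controls, a 1.97-fold rise (limma adjusted p = 0.00256). DNASE2, the acid nuclease that clears DNA in lysosomes, was at 11.2 ± 0.344 with overexpression and 6.81 ± 0.785 FPKM in controls, a 1.64-fold rise (limma adjusted p = 0.00426). CTSW, a cathepsin known from cytotoxic lymphocytes, rose 1.55-fold, and CTSG, the serine protease of neutrophil granules, fell to 0.491 of control. These 4 genes kept their calls in all 16 alternatives, with adjusted p up to 0.0407.

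Of 26 other lysosomal membrane proteins 0 rose and 2 fell, with a median log2 change of 0.04. CLCN7, the chloride-proton exchanger of the lysosome, was at 10.8 ± 0.924 with overexpression and 15.7 ± 0.271 FPKM in controls, or 0.684 of control (limma adjusted p = 0.00444, up to 0.0243 in 16 alternatives). PIP4P1, a phosphoinositide phosphatase, stood at 0.797 of control (limma adjusted p = 0.0171) and lost its call without any 1 of the controls, at 0.0522 to 0.0647. Of 28 genes that deliver enzymes to lysosomes 1 rose and 5 fell, with a median log2 change of -0.09. SORL1, a sorting receptor between the Golgi and endosomes, fell to 0.548 of control (limma adjusted p = 0.000874), and AP1S2, a small subunit of the AP-1 clathrin adaptor, rose 1.91-fold (limma adjusted p = 0.00108). AP3S2 and AP3B1, of the AP-3 adaptor that routes cargo to lysosomes, stood at 0.684 and 0.825 of control, and lost their calls at adjusted p up to 0.0529 and 0.0798 when 1 library was left out. For AP3S2 this was control replicate 3, and for AP3B1 overexpression replicate 2 or any 1 of the controls. AP3B1 also lost its call with the replicate block.

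Genes that link lysosomes to MTORC1 and MiT-TFE factors had 4 rises and 0 falls among 23 tested, or 17.4% rising, with a median log2 change of -0.02. RRAGA and RRAGD encode Rag GTPases, which hold MTORC1 on the lysosome when amino acids are present. RRAGA was at 84.1 ± 0.822 with overexpression and 57.9 ± 1.71 FPKM in controls, a 1.45-fold rise (limma adjusted p = 0.000883). RRAGD was at 8.24 ± 0.316 with overexpression and 4.62 ± 0.267 FPKM in controls, a 1.78-fold rise (limma adjusted p = 0.00109). Both kept their calls in all 16 alternatives, with adjusted p up to 0.00892. RPTOR, the MTORC1 subunit that binds the Rags, rose 1.32-fold and lost its call when any 1 library was left out, without the filter, after TPM rescaling and with the replicate block, at 0.0517 to 0.106. PPP3CA, a catalytic subunit of the phosphatase calcineurin, which acts on TFEB, rose 1.24-fold and lost its call without overexpression replicate 2, without any 1 of the controls, without the filter and after TPM rescaling, at up to 0.0690.

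Autophagy genes had 4 rises and 4 falls among 39 tested, with a median log2 change of -0.04. MAP1LC3B, the LC3 protein of the autophagosome membrane, was at 14.5 ± 0.355 with overexpression and 11.2 ± 0.517 FPKM in controls, a 1.30-fold rise (limma adjusted p = 0.00705). The mitophagy receptor BNIP3L rose 1.41-fold (limma adjusted p = 0.00711), and both genes kept their calls in all 16 alternatives, with adjusted p up to 0.0322. BNIP3 rose 1.18-fold and lost its call without any 1 of the controls, under quantile normalization and after TPM rescaling, at up to 0.0669. WIPI1 rose 1.34-fold and lost its call without the filter and without overexpression replicate 1 or 3 or control replicate 1 or 3, at up to 0.0815. The 4 that fell were ATG13, ATG2B, TAX1BP1 and EPG5, named here after their values were seen, at 0.841, 0.784, 0.870 and 0.708 of control.

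**Figure D5:**
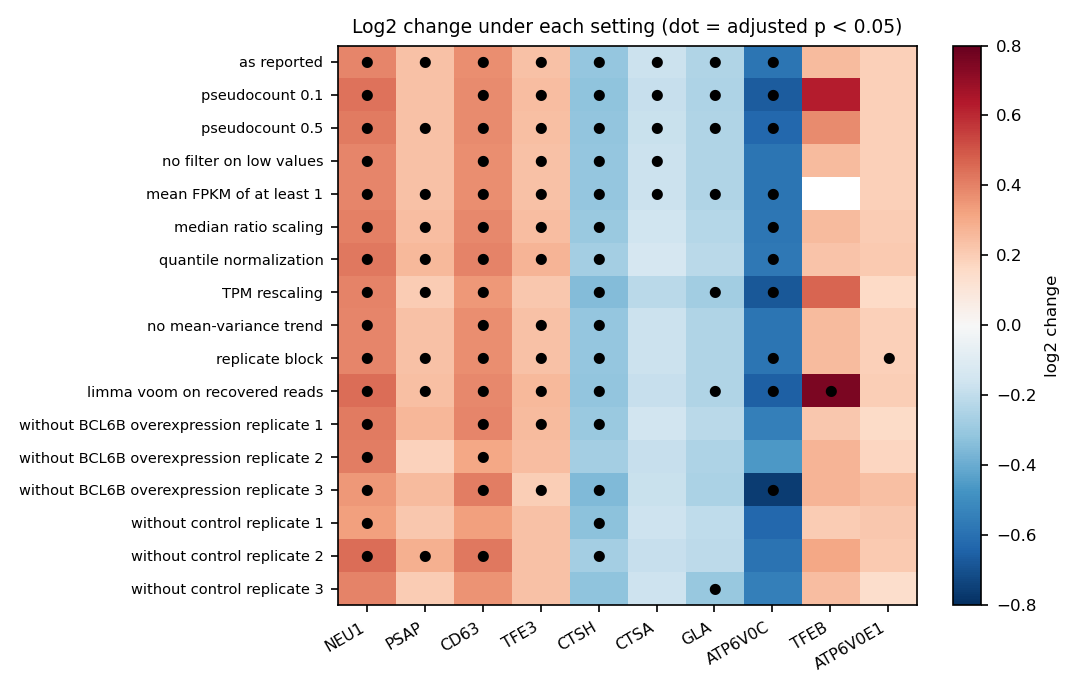
Log2 change of the 8 lysosomal genes that passed, and of TFEB and ATP6V0E1, under each setting (rows), with colour for the change and a dot where the adjusted p was below 0.05. No direction changed in any row, NEU1 has dots in all rows but 1 and CTSA in none of the rows that leave out a library, and the blank cell is TFEB below the filter.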

How the data were processed

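Polyadenylated RNA from 6 U937 libraries was made into strand-specific libraries with dUTP, per the labels' protocols. The authors deposited 1 table of FPKM with a column for each library, beside the gene length. The submitters' processing notes list cutadapt 1.9, which trims adapters, and the build GRCh38. For the aligner, the counter and its use of strand, the answer is not given in the sources used here. FPKM multiplied by gene length gave whole fragments for 100% of 139702 values above 0, within a tolerance of 0.01, and so the fragments per gene and the depths were worked out. Depth limits precision most for genes such as TFEB, and a count covers counting error only, since copies made by PCR are not independent molecules.

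Genes with at least 0.5 FPKM in at least 3 libraries were tested with limma 3.58.1 (R 4.3.3) after taking log2(FPKM + 1) (mean-variance trend, two-sided, Benjamini-Hochberg adjustment over 14662 genes, threshold 0.05). Intervals are 95% intervals from the moderated fit. Groups and replicate numbers came from the sample titles. The genes and lists were chosen with earlier results of these data known. The rule for naming took all 41 genes, BCL6B, GGT5 and, from each wider list, up to 4 that passed with the smallest adjusted p. TCIRG1, ATP6V0A2, ATP6V1G1 and 4 autophagy genes were named after their values were seen. Overlap with other genes came from GENCODE 29, and copies of at least 98% identity over 200 bases were searched with BLAST+ 2.17.0, which found copies in overlapping genes alone. Alternatives were the pseudocount, the filter, 3 scalings, no trend, a replicate block, limma voom on recovered fragments (added after the data were seen) and leaving out each library. The planned edgeR test was not run, because the deposited unit is FPKM.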

Additional observations from a re-analysis of the deposited data

How the results depend on the processing

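No direction of the 8 called genes changed in any of 16 alternatives. Without the filter on low values 30382 genes were tested, of which 716 rose and 872 fell. Of the lysosomal genes 4 rose and 4 fell as reported. The number that fell was 2 without the filter, with median ratio scaling, with quantile normalization and with the replicate block, and 1 without the mean-variance trend. Among hydrolases and soluble cofactors, 1 rose with a pseudocount of 0.1, without the filter and without the trend, and 1 fell with median ratio scaling, with quantile normalization, without the trend and with the replicate block. In the V-ATPase 1 rose with the replicate block (ATP6V0E1), and 0 fell without the filter and without the trend. With 1 library left out, 604 to 1014 of all genes rose and 618 to 1258 fell. Of the lysosomal genes 0 to 3 rose and 0 to 2 fell. Among hydrolases or cofactors 0 to 2 rose and 0 to 1 fell, and in the V-ATPase 0 rose and 0 to 1 fell. The share called was 2.5% to 12.5% of the 40 lysosomal genes, against 8.33% to 15.5% of all tested genes. It was below that of all tested genes in each of these fits. The median log2 change of the lysosomal genes was 0.0413 to 0.0795. The labels do not say that replicate numbers mark pairs, and the deviations of same-numbered libraries correlated at 0.0511, 0.110 and -0.00189, so the replicate block, under which 7 lysosomal and 2328 of all genes passed, was not used. Overexpression replicates 1 and 2 each correlated best with the control of their own number, and overexpression replicate 3 did not. The causes of these shifts were not tested.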
